A study of Rattus norvegicus with 23 samples.

Results

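The 10 lung genes described here belong to extracellular proteolysis and were followed in rats that had breathed eucalyptus wood smoke. They encode 6 inhibitors (Serpina1, Slpi, Cst3, Timp1, Timp2 and Timp3) and 4 matrix metalloproteinases (Mmp2, Mmp9, Mmp12 and Mmp14), and were taken by gene symbol as 10 of the 19249 genes in the table. All 10 had a mean normalized count of at least 10 and were among the 14414 genes tested. The study compared the lungs of male rats (Rattus norvegicus) after whole-body exposure to filtered air (n = 7), low smoke with a target carbon monoxide concentration of 10 ppm (n = 8) or high smoke with a target of 20 ppm (n = 7). Exposure ran for 4 days in week 1 and, after 3 days without smoke, for 3 days in week 2. Strain and age are not given in the sources used here, and the samples are labelled only as lung of male rats, with no allele or transgene named. Each library is 1 rat, made from a frozen piece of whole lung whose RNA integrity number was 9.0 or higher.

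In the lung, the elastic and collagenous matrix is held in balance by proteases and the inhibitors that block them. Serine protease inhibitors restrain neutrophil elastase, cystatins restrain lysosomal cysteine proteases, and the tissue inhibitors of metalloproteinases bind the zinc-dependent metalloproteinases. Loss of this balance is the textbook mechanism of emphysema, which inherited lack of alpha-1 antitrypsin, the product of Serpina1, can cause, and of which the macrophage elastase Mmp12 is a known agent in smoke-exposed mice.

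Depth ranged from 8484131 to 12055512 read equivalents per library, a library total divided by the value of 1 read. High smoke replicates 1, 3 and 7 stood apart on the first principal component, which carried 19.7% of the variance: they scored 36.5 to 51.5, against 0.3 to 8.8 in the other 4 high smoke libraries and -21.6 to 8.8 in the other 19 libraries together. The members' differences between high smoke and air are therefore also given without those 3. Levels are normalized counts, that is, counts per gene that the authors scaled by 1 factor for each library. They are not scaled by transcript length, so the levels of different genes are not compared. Changes are differences in log2(normalized count + 1) from a limma fit of all 3 groups, and a gene is said to have risen or fallen only where its p-value, adjusted by Benjamini-Hochberg over all 14414 genes, was below 0.05. A fold change is the log2 difference of the fit turned back to a linear scale, so it can differ from the ratio of the 2 group means printed beside it.

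**Figure D1:**
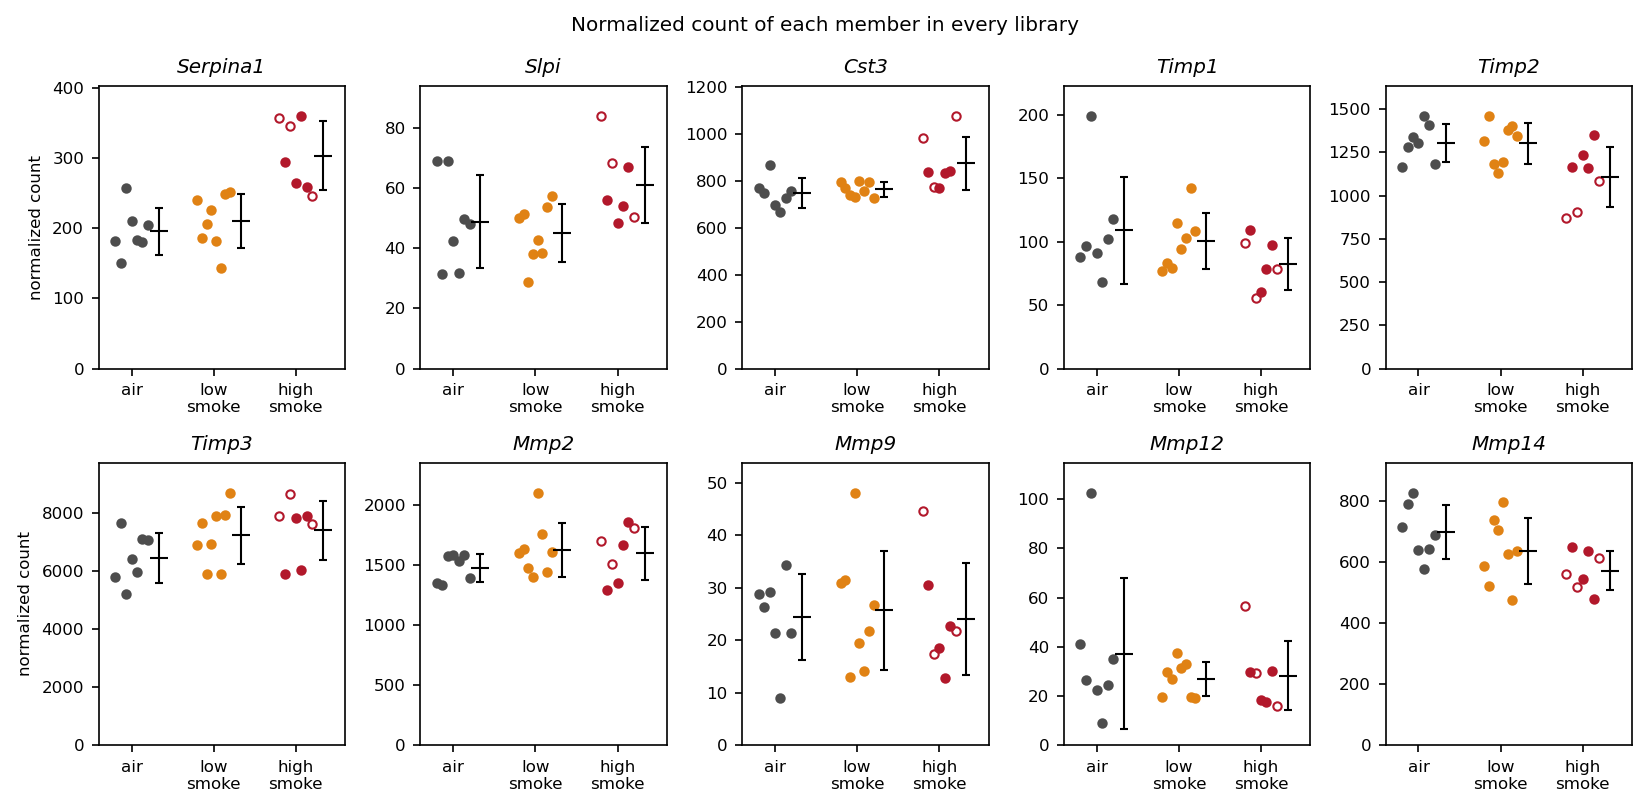
Normalized count (linear axis from 0) of each of the 10 genes in every library, by exposure group, with the group mean and SD in black beside the points; open circles are high smoke replicates 1, 3 and 7. Serpina1 is the gene whose high smoke libraries lie above nearly all others, and single high values of Timp1 (198.8) and Mmp12 (102.6) stand out in air.

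In high smoke against air, Serpina1 and Cst3 rose, no member fell, and 8 did not pass the limma test. These 2 of 10 members stand beside 16.3% of all tested genes called in this comparison (9.21% rose, 7.05% fell, and 30.7% had an unadjusted p below 0.05), so the members were called about as often as genes in general. Which members passed depended on the scaling: 1 rose and 2 fell with libraries scaled to the same total, 1 rose and 1 fell at the same upper quartile, and 2 rose and 2 fell at the same median. Serpina1 rose under all 3 scalings, and the members that fell were Timp2 (under all 3) and Mmp14 (at the same total and the same median). The members' median difference was 0.04 on the log2 scale, with 5 above and 5 below air, against a median of -0.00 over all genes. In low smoke against air 0 of the 10 passed, with 0% of all genes called by limma (6.4% had an unadjusted p below 0.05, among them 0 members, and the exact rank-sum test also called 0). In high smoke against low smoke, Serpina1 rose and the other 9 did not pass, beside 6.78% of all genes called (3.8% rose, 2.98% fell, and 25.6% had an unadjusted p below 0.05). Every member's groups overlapped in all 3 comparisons, as did those of all but 1.87%, 0.0416% and 0.694% of genes in high smoke against air, in low smoke against air, and between high and low smoke. Without high smoke replicates 1, 3 and 7, 0.861% of genes and 0 members were called in high smoke against air.

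Serpina1 (chromosome 6, 127610243 to 127632266 in build rn6, minus strand) encodes alpha-1 antitrypsin, the main inhibitor of neutrophil elastase. The upstream sequences of Serpina1 and Cst3, the members that rose, are shown so that both start regions can be compared. Each run is the 150 bases before the annotated start in RefSeq's GRCr8 table, 5′ to 3′ on the gene's strand, with matches to GGGCGG on either strand in capitals.
Serpina1, chr6:128653126-128653275, minus strand: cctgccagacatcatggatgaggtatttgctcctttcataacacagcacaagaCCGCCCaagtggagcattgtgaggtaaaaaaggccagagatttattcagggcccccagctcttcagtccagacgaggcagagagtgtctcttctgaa
Cst3, chr3:156793938-156794087, minus strand: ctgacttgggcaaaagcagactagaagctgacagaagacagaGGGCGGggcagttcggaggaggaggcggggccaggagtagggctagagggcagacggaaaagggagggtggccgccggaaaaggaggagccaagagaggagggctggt
The 6 letters, the core of a GC box, lay 97 to 92 bases before the start of Serpina1 as the reverse complement, and 108 to 103 bases before the start of Cst3 on the gene's own strand. In the 250 bases upstream, 30.5% of 33469 RefSeq promoters hold this motif on either strand, so a match is common. Of the 10 members 6 were in the promoter table. Timp1, Timp2 and Timp3 also held it, while Mmp12 held TATAAA (in 12.9% of promoters) and the AP-1 motif TGANTCA (in 6.34%), neither of which was found in the other 5. These matches describe letters and not binding.

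Serpina1 was higher in high smoke than in either other group. Its normalized count had a lowest value of 151, a median of 182 and a highest value of 257 in air, 144, 216 and 251 at low smoke, and 245, 294 and 359 at high smoke. All 7 high smoke libraries were above the air median, and 6 of 7 were above the highest air library, air replicate 3. The single high smoke library inside the air range was replicate 7 at 245.4, so the groups overlapped by that library. The mean rose 1.55-fold from 195 ± 33.4 in air (SD, n = 7) to 303 ± 49.6 in high smoke (SD, n = 7), a log2 difference of 0.63 (SE 0.13, limma adjusted p = 0.00241). Of the 14414 genes, 273 had a smaller p.

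The rise was also present against low smoke, where the mean was 210 ± 38.2 (SD, n = 8), with a log2 difference of 0.53 (SE 0.12, adjusted p = 0.0219 in limma). Low smoke itself stood at 0.10 from air (95% interval -0.16 to 0.36, limma adjusted p = 0.927). That interval spans 0 and reaches 0.36, so a smaller rise at low smoke was neither shown nor excluded. The mean in high smoke was above both other means. Because low and high smoke share the air libraries, the contrast of high with low smoke is the test of whether the 2 smoke effects differ. Without high smoke replicates 1, 3 and 7 the difference from air was 0.59, nearly as large, with limma adjusted p = 0.063. The difference from low smoke was then 0.49 (limma adjusted p = 0.636), and leaving out replicate 1, 3 or 7 alone also ended that call (adjusted p = 0.0642, 0.0622 and 0.0524), with differences of 0.49, 0.50 and 0.58. The exact rank-sum test did not call it either (adjusted p = 0.0567).

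In a piece of whole lung, more cells of a type and more RNA per cell cannot be told apart. Alpha-1 antitrypsin is made mainly by hepatocytes, and also by macrophages and epithelium. The hepatocyte gene Alb, for serum albumin, ran from 0 to 16.9 in air and from 0.95 to 84.3 in high smoke, with medians of 3.29 and 2.17. Of 3 hepatocyte marker genes tested of 8 found, 1 rose (Hp, an acute phase protein that lung also makes), and their summed level was 1010 to 1517 in air and 1057 to 1984 in high smoke. Macrophage markers had 3 of 16 tested genes up and 1 down, with summed levels of 63355 to 79658 in air and 68017 to 98626 in high smoke. Most of that sum was the single gene Lyz2, at 54372 to 69747 in air and 58750 to 89266 in high smoke. The complement genes C1qb and C1qa led the macrophage markers that rose, at 0.79 and 0.64 on the log2 scale. The 1 that fell was Cd68, with a mean of 93.3 in air and 69.1 in high smoke. Alveolar type 2 cell markers had 3 of 10 up, led by Napsa (0.82) and Sftpc (0.69), and 1 down. The 1 down was Lpcat1, with a mean of 5576 in air and 4792 in high smoke. The summed levels of this list were 190582 to 240628 in air and 232409 to 301439 in high smoke. Much of the difference in that sum was the single gene Sftpc. Its mean was 65040 in air and 106596 in high smoke, beside mean sums of 211480 and 258617. The median log2 difference over the 10 genes was 0.05. These counts of markers up and down stand beside 9.21% of all genes that rose and 7.05% that fell. Without high smoke replicates 1, 3 and 7, 0 hepatocyte and 0 macrophage markers were called, and of the alveolar type 2 markers only Napsa was (0.49, limma adjusted p = 0.0441), with Sftpc at 0.45 (limma adjusted p = 0.232). No marker of these 3 lists was at 0 in every library of a group, and the part of these cells in the rise of Serpina1 was not tested. Over the other 12 marker lists, in high smoke against air, smooth muscle and fibroblast markers had 3 of 9 and 3 of 13 up, alveolar type 1, endothelial and red cell markers 2 of 10, 2 of 11 and 2 of 6, and ciliated and lymphocyte markers 1 of 9 each, with 1 fibroblast, 1 endothelial and 1 ciliated gene down. Neutrophil, airway secretory, mesothelial, mast cell and cardiac muscle markers had 0 called. In these 12 lists 0 markers were called without high smoke replicates 1, 3 and 7. The defining lung genes Sftpc and Ager were at least 53126 and 7763 in every library.

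Slpi (chromosome 3, 160799981 to 160802434 in rn6) encodes the secretory leukocyte protease inhibitor, which airway epithelium secretes and which blocks neutrophil elastase and cathepsin G. Its values were 31.4, 48.3 and 69.2 (lowest, median, highest) in air, 28.8, 46.6 and 57.5 at low smoke, and 48.4, 56.3 and 84.1 at high smoke. All 7 high smoke libraries lay above the air median of 48.3, but the groups overlapped widely and 1 high smoke library exceeded the highest air value. The difference from air was 0.36 (95% interval -0.03 to 0.74, limma adjusted p = 0.2), and that from low smoke was 0.44 (95% interval 0.06 to 0.81, limma adjusted p = 0.129). In low smoke it stood at -0.08 from air (limma adjusted p = 0.962). The high smoke difference from air was 0.25 without high smoke replicates 1, 3 and 7 (limma adjusted p = 0.651). Slpi was read at 30 to 84 read equivalents, and 19 of its 22 values lay within 0.02 reads of a whole number. The paralog Slpil2 has a row of its own, and how shared reads were counted is not given in the sources used here. Airway secretory markers had 0 of 7 tested genes called, with summed levels of 9024 to 14987 in air and 8841 to 14147 in high smoke.

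Cst3 (chromosome 3, 143219686 to 143223616 in rn6) encodes cystatin C, a secreted inhibitor of lysosomal cysteine proteases. It had 665, 746 and 867 in air, 725, 760.0 and 799.7 at low smoke, and 770.1, 838 and 1074 at high smoke, again as lowest, median and highest value. All 7 high smoke libraries were above the air median, and replicates 1 and 7, at 981 and 1074, were above the highest air library. The mean rose 1.17-fold from 746 ± 64.4 in air (SD, n = 7) to 873 ± 113 in high smoke (SD, n = 7), a log2 difference of 0.22 (SE 0.07, limma adjusted p = 0.036). It was 763 ± 30.6 in low smoke (SD, n = 8), 0.04 from air (limma adjusted p = 0.958), and high smoke stood 0.19 above low smoke (limma adjusted p = 0.095).

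The call of Cst3 in high smoke against air held in fewer settings than that of Serpina1. It was past the threshold in 23 of 34 alternative settings, and Serpina1 in 33 of 34. It was lost without high smoke replicate 1 (0.19, adjusted p = 0.0906) or 7 (0.17, adjusted p = 0.0962), without air replicate 2, 4, 5 or 6 (0.19 to 0.22, adjusted p = 0.0544 to 0.0756), and without high smoke replicates 1, 3 and 7 together (0.14, adjusted p = 0.347). Scaling all libraries to 1 common total gave 0.15 (adjusted p = 0.178), and to the same upper quartile 0.20 (adjusted p = 0.0619). The call was also lost in a limma fit of only the 2 groups compared (adjusted p = 0.102). The exact rank-sum test did not make it either (adjusted p = 0.0889).

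The cysteine proteases that cystatins bind were taken as a list. Of its 10 genes tested, 4 rose and 0 fell in high smoke against air, beside 9.21% and 7.05% of all genes. The list median was 0.26. Ctsh, which also processes surfactant proteins, rose 1.51-fold from 7121 ± 891 (SD, n = 7) to 11067 ± 3125 (SD, n = 7, limma adjusted p = 0.00462). Ctsc, which activates the serine proteases of neutrophil granules, rose 1.23-fold, and Ctsl, a lysosomal cathepsin, rose 1.39-fold. None of the 10 passed without high smoke replicates 1, 3 and 7, when the list median was 0.11. Of 3 other cystatins tested, Kng1, the kininogen precursor with cystatin domains, rose 1.52-fold, and Cstb, the intracellular cystatin B, fell by 0.40 on the log2 scale.

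**Figure D2:**
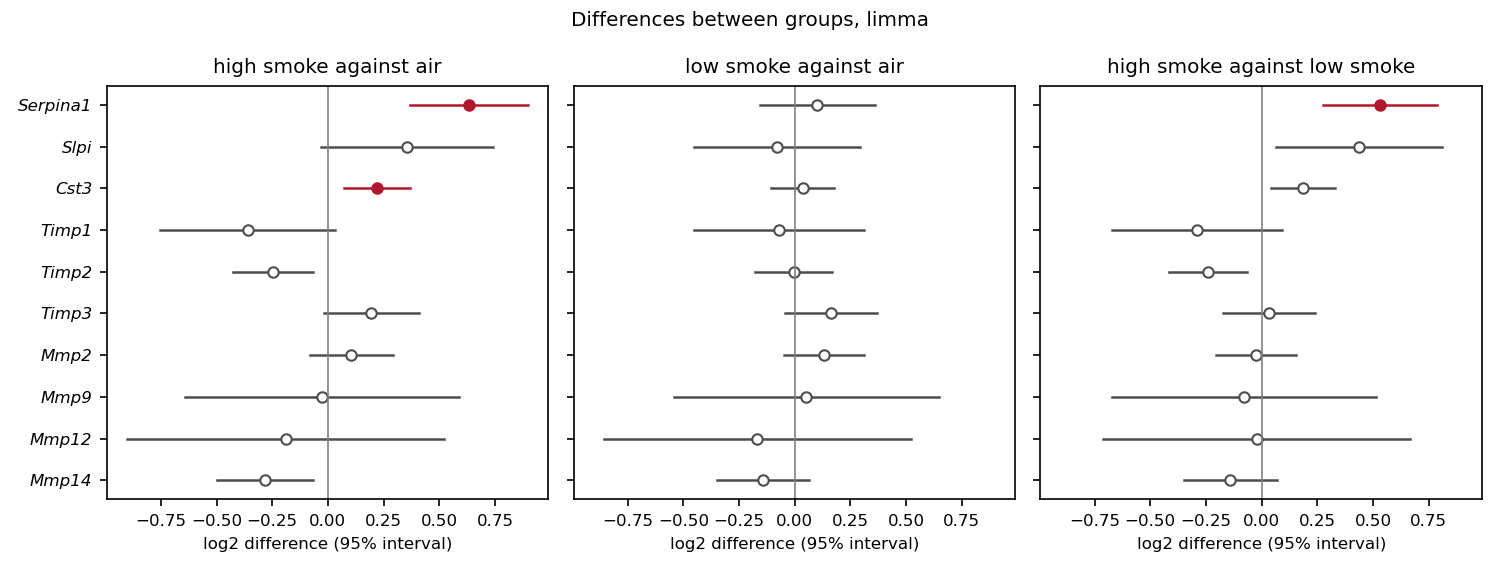
Log2 difference of each gene with its 95% interval from the limma fit (horizontal axis, log2 units) in the 3 comparisons; filled red points passed an adjusted p of 0.05. Serpina1 passed in both comparisons of high smoke and Cst3 in high smoke against air, while every low smoke interval spans 0.

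The 3 tissue inhibitors of metalloproteinases did not pass in any comparison, and they did not lean the same way in high smoke. Timp1 (X chromosome, 1364786 to 1369385 in rn6), which is inducible and pairs with the proform of Mmp9, had 67.8, 96.8 and 199 in air, 77.0, 98.8 and 142 at low smoke, and 55.3, 78.7 and 109 at high smoke. Air replicate 3 held the highest value, and the high smoke libraries lay within or just below the air range. The difference was -0.36 in high smoke (95% interval -0.75 to 0.03, limma adjusted p = 0.204) and -0.07 in low smoke (limma adjusted p = 0.968). Without air replicate 3 the high smoke difference was -0.20, and without high smoke replicates 1, 3 and 7 it was -0.29.

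Timp2 (chromosome 10, 107338465 to 107386073 in rn6), which is largely constitutive and takes part in the activation of the Mmp2 proform by Mmp14, had 1167, 1305 and 1459 in air, 1130.0, 1331 and 1459 at low smoke, and 869, 1163 and 1351 at high smoke. High smoke replicates 1, 3 and 7, at 869, 905 and 1082, were the lowest libraries of all 22, and the other 4 ran from 1163 to 1351, against a lowest air value of 1167. The mean was 1306 ± 108 in air and 1110.3 ± 173 in high smoke (SD, n = 7 each), a log2 difference of -0.25 (95% interval -0.43 to -0.07, limma adjusted p = 0.0564). Against low smoke, with a mean of 1302 ± 118 (SD, n = 8), it was -0.24 (limma adjusted p = 0.0811), and low smoke stood at -0.01 from air (limma adjusted p = 0.997). Without replicates 1, 3 and 7 the difference from air was -0.09 (limma adjusted p = 0.681).

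Timp3 (chromosome 7, 23544215 to 23594134 in rn6), the member of the family that binds to the matrix and also blocks ADAM proteases, had 5199, 6412 and 7653 in air, 5907, 7278 and 8695 at low smoke, and 5904, 7809 and 8653 at high smoke. The groups overlapped, with 4 of 7 high smoke and 3 of 8 low smoke libraries above the highest air library. Its difference from air was 0.19 in high smoke (95% interval -0.02 to 0.41, limma adjusted p = 0.207) and 0.16 in low smoke (95% interval -0.05 to 0.37, limma adjusted p = 0.822). The high smoke difference was 0.10 without replicates 1, 3 and 7 (limma adjusted p = 0.776).

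The gelatinase Mmp2 (chromosome 19, 15542765 to 15570612 in rn6), which fibroblasts make and which cleaves type IV collagen, had 1329, 1528 and 1582 in air, 1395, 1601 and 2100 at low smoke, and 1288, 1663 and 1861 at high smoke. Its air values were the least spread of any member (a coefficient of variation of 7.77%), and 5 of 8 low smoke and 4 of 7 high smoke libraries exceeded the highest of them. The differences from air were 0.13 in low smoke (95% interval -0.05 to 0.31, limma adjusted p = 0.825) and 0.11 in high smoke (95% interval -0.08 to 0.29, limma adjusted p = 0.453). The low smoke value of 2100, in replicate 5, was the highest of all libraries. The high smoke difference was 0.05 without high smoke replicates 1, 3 and 7 (limma adjusted p = 0.883).

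Mmp9 (chromosome 3, 161413298 to 161421521 in rn6), the gelatinase of neutrophils and activated macrophages, had 8.97, 26.3 and 34.4 in air, 13.0, 24.1 and 48.1 at low smoke, and 12.7, 21.8 and 44.5 at high smoke, from 9 to 49 read equivalents. The differences from air were -0.03 in high smoke (95% interval -0.64 to 0.59) and 0.05 in low smoke (95% interval -0.54 to 0.65), with limma adjusted p = 0.966 and 0.988. The former was -0.17 without high smoke replicates 1, 3 and 7. Changes inside these wide intervals were not detectable at this depth and spread. Neutrophil markers had 0 of 8 tested genes called, with summed levels of 292 to 677 in air, 227 to 596 in low smoke and 301 to 622 in high smoke.

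Mmp12 (chromosome 8, 5606592 to 5616494 in rn6), the elastase of alveolar macrophages, had 8.97, 26.3 and 103 in air, 19.2, 28.3 and 37.3 at low smoke, and 15.8, 29.3 and 56.6 at high smoke, from 9 to 95 read equivalents. Its air values were the most spread of any member and group, with a coefficient of variation of 82.1%. Air held both its lowest and its highest library, replicates 5 and 3. The differences from air were -0.19 in high smoke (95% interval -0.90 to 0.52, limma adjusted p = 0.747) and -0.17 in low smoke (95% interval -0.86 to 0.52, limma adjusted p = 0.96). Both turned positive without air replicate 3, to 0.10 in high smoke and 0.13 in low smoke. A single air library therefore decided the sign of both differences. It was -0.34 in high smoke without high smoke replicates 1, 3 and 7.

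Mmp14 (chromosome 15, 33074441 to 33083656 in rn6), the membrane-bound collagenase that activates the Mmp2 proform, had 575, 688 and 826 in air, 474, 631 and 796 at low smoke, and 479, 560 and 648 at high smoke. All 7 high smoke libraries were below the air median, and the groups overlapped between 575 and 648. The mean was 697 ± 88.4 in air (SD, n = 7), 635 ± 108 at low smoke (SD, n = 8) and 571 ± 63.0 at high smoke (SD, n = 7). The log2 difference was -0.28 in high smoke (95% interval -0.50 to -0.07, limma adjusted p = 0.0638) and -0.14 in low smoke (limma adjusted p = 0.85). Without high smoke replicates 1, 3 and 7 the high smoke difference was -0.27, nearly as large, with limma adjusted p = 0.342.

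**Figure D3:**
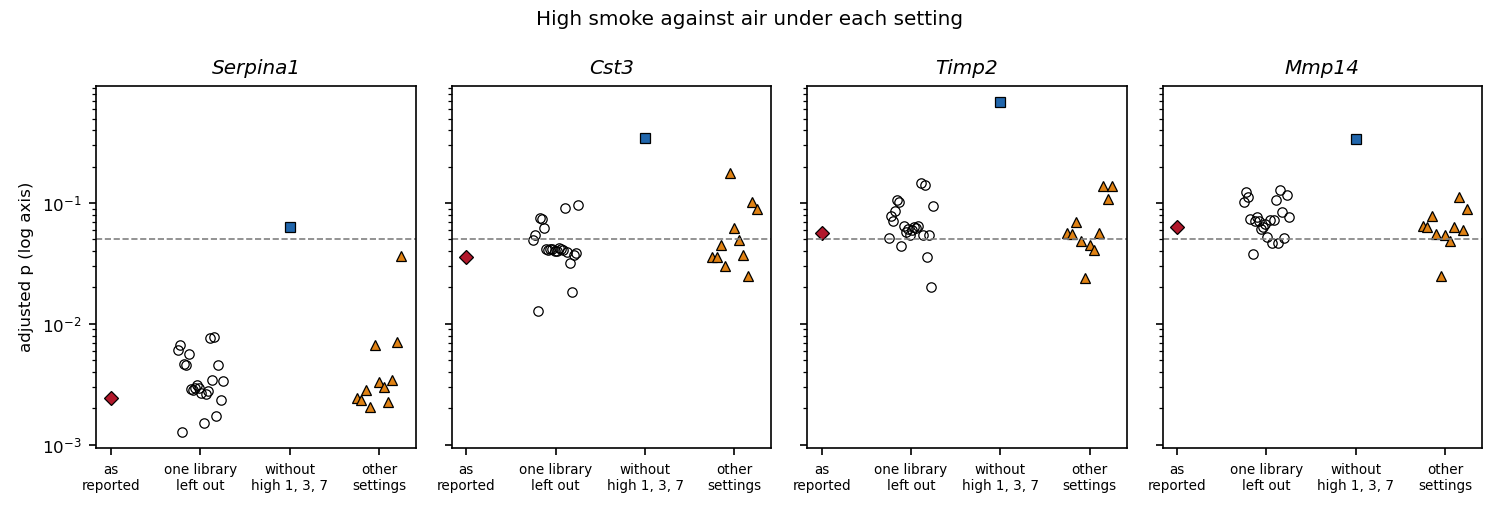
Adjusted p (log axis, dashed line at 0.05) of Serpina1, Cst3, Timp2 and Mmp14 in high smoke against air as reported, with 1 library left out at a time, without high smoke replicates 1, 3 and 7, and under the other settings. Serpina1 passed in 33 of 34 alternatives and Cst3 in 23, and Timp2 and Mmp14 crossed the line in 7 and 5.

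Known inhibitor and proteinase partners were also set against each other within each library, as differences of log2(normalized count + 1), and these log2 ratios are given as a description without a test. The added 1 pulls the ratios of the thinly read genes Mmp9 and Mmp12 towards 0. Timp2 to Mmp2 averaged -0.18 ± 0.09 in air (SD, n = 7), -0.31 ± 0.22 at low smoke (SD, n = 8) and -0.53 ± 0.31 at high smoke (SD, n = 7). High smoke replicates 1, 3 and 7 held -0.96, -0.74 and -0.74, and the other 4 ran from -0.52 to -0.13. Air libraries ran from -0.28 to -0.05, so 5 of 7 high smoke and 5 of 8 low smoke libraries were below all of air. Timp3 to Mmp14 averaged 3.21 ± 0.28 in air, 3.51 ± 0.36 at low smoke and 3.69 ± 0.35 in high smoke (SD, n = 7, 8 and 7). Its libraries overlapped, at 2.65 to 3.47 in air, 3.00 to 4.06 at low smoke and 3.19 to 4.06 in high smoke. Timp1 to Mmp9, at 2.13 ± 0.52, 2.01 ± 0.64 and 1.80 ± 0.43 in the same order, and Timp1 to Mmp12, at 1.77 ± 0.62, 1.87 ± 0.49 and 1.60 ± 0.56, lay within 1 SD of each other in all 3 groups. Timp2 to Mmp14, at 0.91 ± 0.26, 1.05 ± 0.37 and 0.95 ± 0.29, also lay within 1 SD in all 3 groups. The SD here is the spread of single libraries, which does not test whether the group means differ. Slpi to Serpina1, the pair of elastase inhibitors, stood at -2.02 ± 0.36, -2.20 ± 0.33 and -2.30 ± 0.25.

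**Figure D4:**
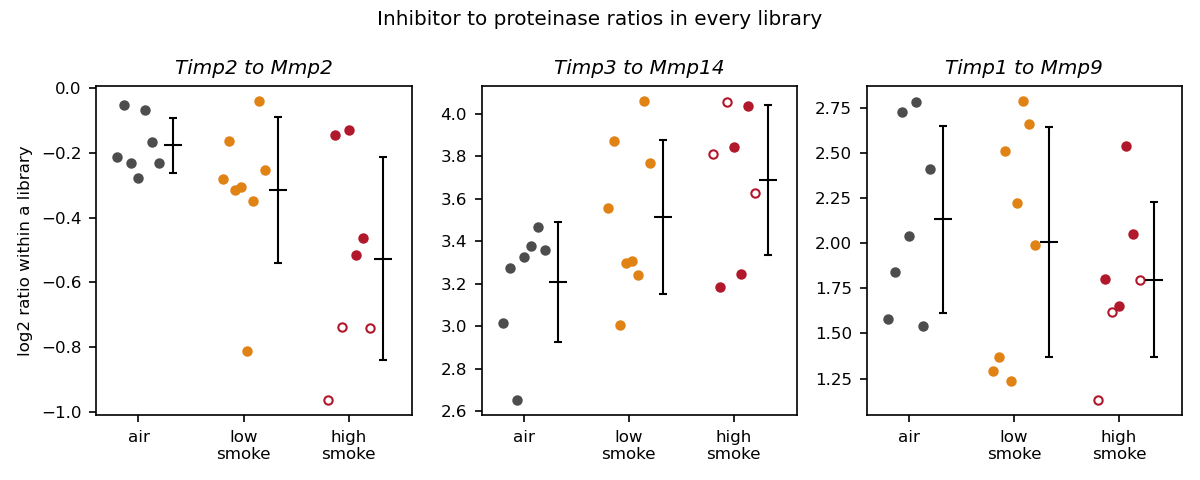
Log2 ratio of inhibitor to proteinase within each library (vertical axis, log2 units, not starting at 0) for 3 pairs, by group, with the group mean and SD in black; open circles are high smoke replicates 1, 3 and 7. The Timp2 to Mmp2 ratio averages -0.18 in air and -0.53 in high smoke, with those 3 libraries lowest in their group.

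Other genes of extracellular proteolysis were taken from 9 lists of 182 genes, of which 157 were found and 139 tested. In high smoke against air 16 rose, 6 fell and 117 did not pass, which is 15.8% called beside 16.3% of all genes. The median difference was 0.03. The counts given for each list below stand beside 9.21% of all genes that rose and 7.05% that fell. In low smoke 0 of 139 passed, and in high smoke against low smoke 6 rose and 4 fell. Without high smoke replicates 1, 3 and 7, 0 of the 139 were called in high smoke against air.

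Among other serpins and serine protease inhibitors, 2 of 21 rose, 1 fell and 18 did not pass. Wfdc2, a whey acidic protein like Slpi that airway epithelium secretes, rose 1.56-fold from 1170 ± 209 (SD, n = 7) to 1873 ± 563 (SD, n = 7, limma adjusted p = 0.00497), and was also higher than in low smoke (1.49-fold, limma adjusted p = 0.0248). Serpinb1a, an inhibitor of neutrophil serine proteases inside cells, rose 1.3-fold (limma adjusted p = 0.0307). Itih4, an inter-alpha-inhibitor heavy chain of the acute phase, fell by 1.14 on the log2 scale (limma adjusted p = 0.0481), from air values that ran from 11.2 to 92.9. Of 8 other matrix metalloproteinases tested, Mmp16, a membrane-type enzyme of the same class as Mmp14, rose 1.3-fold (limma adjusted p = 0.0392) and the other 7 did not pass.

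Regulators of metalloproteinase activity moved in both directions. Of 15 tested, 2 rose and 2 fell. Reck, a membrane-anchored inhibitor of Mmp2, Mmp9 and Mmp14, fell by 0.30 on the log2 scale, from 1894 ± 122 (SD, n = 7) to 1547 ± 176 (SD, n = 7, limma adjusted p = 0.00971). Bsg, also called EMMPRIN, a surface protein that induces metalloproteinases, rose 1.28-fold (limma adjusted p = 0.0114). Cd63, a tetraspanin that binds Timp1 at the cell surface, rose 1.25-fold (limma adjusted p = 0.0151). Against low smoke Reck fell by 0.24 and Bsg rose 1.23-fold, with limma adjusted p = 0.0477 and 0.0446.

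Of 22 ADAM and ADAMTS proteases 1 rose and 1 fell: Adam17, the sheddase that releases tumour necrosis factor and that Timp3 blocks, fell by 0.31 on the log2 scale, and Adam10, a related sheddase, rose 1.22-fold (limma adjusted p = 0.0096 and 0.0252). Of 17 serine proteases 1 rose, the mitochondrial Htra2 (1.32-fold), and none fell. Matrix substrates had 3 of 23 up and 1 down. Dcn, the collagen-binding proteoglycan decorin, rose 1.48-fold, Sparc, a matricellular protein, 1.26-fold, and Col4a1, a chain of basement membrane collagen that Mmp2 and Mmp9 cleave, 1.22-fold. Among 20 inducers and acute phase regulators Tgfb1, the growth factor that raises Timp1 and matrix genes, rose 1.3-fold and the other 19 did not pass.

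**Figure D5:**
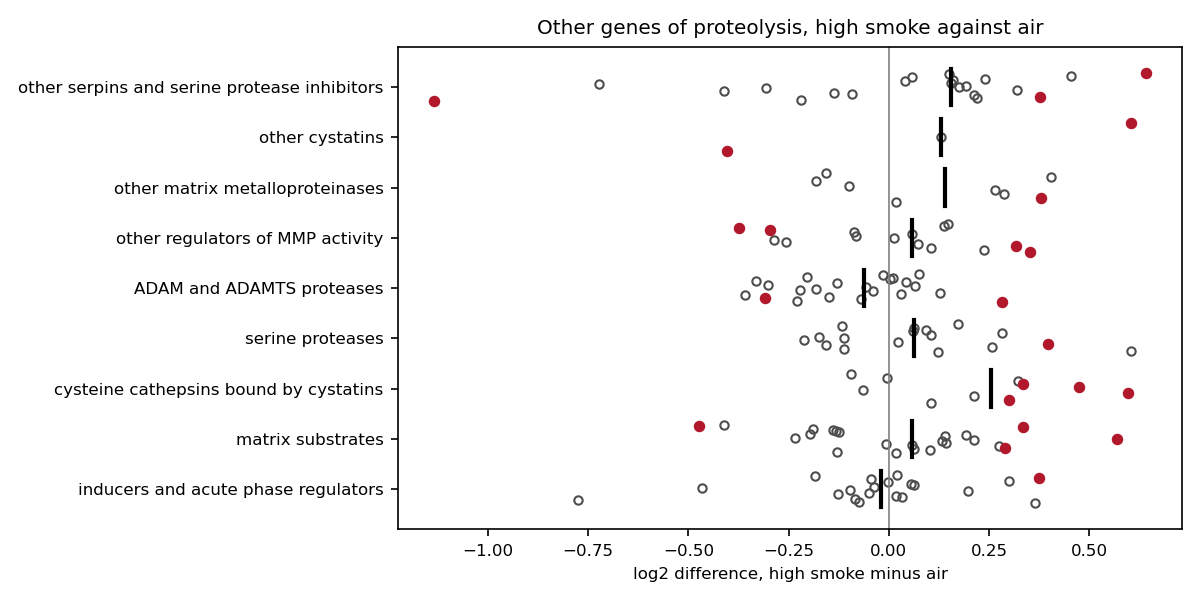
Log2 difference of each tested gene of the 9 lists in high smoke against air (horizontal axis, log2 units), with genes past an adjusted p of 0.05 filled red and the list median as a black bar. Cysteine cathepsins have the highest median, at 0.26, and 4 of their 10 genes are filled.

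Each member was ranked against all tested genes by the likeness of its variation within groups, as Pearson's r of log2 values after subtracting each group mean over 22 libraries. This is a ranking among many genes on values that share their library scaling, given without a p. Mmp2 was most like Wfdc1 (0.79), Nova2 (0.78) and Col3a1 (0.77), the last a fibrillar collagen of fibroblasts. Timp2 was most like Acoxl (0.89), Washc2c (0.85) and Siglec10 (0.85), and without high smoke replicates 1, 3 and 7 these were 0.75, 0.72 and 0.68. Slpi was most like Cd3g (0.80), a CD3 subunit of the T cell receptor complex, Irf8 (0.74), a transcription factor of myeloid and B cells, and Ahcy (0.71). Cd3g was itself thinly read, at normalized counts of 3.99 to 18.4 in air, 7.79 to 13.8 at low smoke and 7.75 to 24.1 at high smoke. Serpina1 was most like Rpl37a (0.73), Ntpcr (0.73) and Mpst (0.72), and Cst3 like Aprt (0.84), Clns1a (0.80) and Tmem140 (0.79), which were 0.76, 0.60 and 0.59 without those 3 libraries. Mmp9 was most like Ptpn22 (0.84), a lymphocyte phosphatase, Cp (0.82), for ceruloplasmin, and Ripor2 (0.81). Mmp12 was most like Uhrf1 (0.77), Riok3 (0.77) and Hmgb2l1 (0.74), Mmp14 like Nxt1 (0.79), Fam111a (0.79) and Ramac (0.76), Timp1 like Atp5if1 (0.73), Ilvbl (0.70) and Psmf1 (0.70), and Timp3 like Slco2a1 (0.79), Crebrf (0.78) and Mgat4a (0.76). Between members, the highest values were 0.62 for Timp1 with Mmp12, 0.56 for Slpi with Mmp12 and 0.55 for Mmp9 with Mmp12. The order changed without high smoke replicates 1, 3 and 7: Cst3 with Mmp12 came first at 0.75 (0.44 over all libraries), Timp1 with Mmp12 was 0.69, and Timp2 with Mmp14 was -0.73 (-0.41 over all libraries).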

How the data were processed

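The deposited table holds 1 value per gene for 22 libraries in a unit of signal: the authors' count of each gene, scaled by 1 factor for each library. The submitters' processing notes name STAR 2.7.3a, Partek, DESeq2 and the build rn6. The high smoke sample numbered replicate 8, labelled as removed for quality, was not analysed here. The labels plan 8 rats per group and also say that an air sample was removed before library preparation. Of the values under 200 reads, 80.7% to 82.8% lay within 0.02 reads of a whole number, so reads were not recovered and no count model was used. The log2 of each value plus 1 was used, which understates changes of low genes. Genes averaging 10 or more were fitted with limma 3.58.1 in R 4.3.3 (1 model of 3 groups, intensity trend on), two-sided. The fit was tested on simulated data. Of the members, Mmp9, Mmp12 and Slpi had the fewest reads, with medians of 24, 28 and 50 read equivalents. The part of read number in their spread was not tested.

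The members and lists were chosen with earlier results of these data known. All members are named. Each list adds up to 3 genes past the threshold in high smoke against air with the smallest p (2 for cell markers), and each member the 3 most alike genes with symbols not starting with LOC, RGD, AABR, AC or ENSRNOG. Alb was named after its values were seen. Cd68 and Lpcat1 were named as the markers of their lists that fell, and Lyz2 as most of the macrophage sum. Of 354 genes including the members, 308 matched by symbol, 2 by a RefSeq synonym (GRCr8) and 44 not. Alternatives were other pseudocounts, filters, scalings, variance options, a fit of the 2 groups compared, an exact two-sided rank-sum test, each library left out, and high smoke replicates 1, 3 and 7 left out.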

Additional observations from a re-analysis of the deposited data

Results flagged for a closer look

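Mmp9 in air replicate 5 had a normalized count of 8.97 (9 reads), far below the other 6 air libraries at 21.3 to 34.4. By Dixon's criterion on log2(normalized count + 1), it was the 1 library far from its group in 30 tests of a member in a group. Chance gives about 1 in 20 tests, so 1 in 30 is no more than chance gives. The high values of Timp1 (198.8) and Mmp12 (102.6) in air replicate 3, which stand out on a linear axis, were not flagged on the log2 scale. The difference between the effects of high and low smoke on Serpina1 was 0.53 on the log2 scale, past the threshold of limma's contrast of high with low smoke (adjusted p = 0.0219), with 6 of 7 high smoke libraries above the highest low smoke library.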

How the results depend on the processing

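Serpina1 in high smoke against air kept its direction in all 34 alternatives and its call in 33. Over all members and comparisons, 42 values changed sign, all of them in comparisons that had not passed. The number of genes called in high smoke against air was 1363 when the 2 groups were fitted alone, 746 by the exact rank-sum test, 124 without high smoke replicates 1, 3 and 7 together, and from 1453 (without high smoke replicate 1) to 2863 (without replicate 4) with 1 library left out, against 2343. It was 1461 without replicate 3 and 1550 without replicate 7. Members called there numbered 1, 1 and 0 under the first 3 of these, 1 to 3 with 1 library left out, and 4 (2 up, 2 down) with libraries scaled to the same median. In low smoke against air 1 gene was called without high smoke replicates 1, 3 and 7, and 0 to 2 with 1 library left out (2 without air replicate 5). In high smoke against low smoke the count of 977 became 183 by the rank-sum test, 0 without the 3 libraries, and 29 (without high smoke replicate 7) to 1651 (without replicate 4) with 1 left out, with 35 and 51 without replicates 1 and 3; members called were 0, 0, and 0 to 2. Scaling to the same total gave 894 genes up and 1797 down in high smoke against air, in place of 1327 and 1016, and 414 up and 633 down against low smoke, in place of 548 and 429; the same upper quartile gave 1188 and 1199, and 475 and 530; the same median gave 1180 and 1177, and 440 and 533. With array weights, low smoke against air was 0.023 for Timp1, 0.023 for Timp2 and -0.040 for Mmp9. For Timp3, high smoke against low smoke was -0.0077 at the same total and -0.066 without the 3 libraries. With 1 library left out, high smoke against air ran from -0.24 to 0.10 for Mmp9 and -0.46 to 0.10 for Mmp12. Low smoke against air ran from -0.18 to 0.010 for Slpi, -0.17 to 0.086 for Timp1, -0.031 to 0.023 for Timp2, -0.16 to 0.17 for Mmp9 and -0.44 to 0.13 for Mmp12. High smoke against low smoke ran from -0.0064 to 0.086 for Timp3, -0.066 to 0.028 for Mmp2, -0.24 to 0.063 for Mmp9 and -0.21 to 0.089 for Mmp12. The cause of these shifts was not tested. The filter at a mean of 50 leaves Mmp9 and Mmp12 untested. No paired analysis was possible because the labels give each rat its own number and no number shared between groups. Read numbers were lowest for Mmp9, Mmp12 and Slpi.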
